A study of Mus musculus with 24 samples.

Results

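The genes described here are 9 redox genes of mouse CD4+ T cells: Txn1, Txnrd1, Prdx1, Prdx2, Srxn1, Gclc, Gclm, Nqo1 and Hmox1. They were chosen by name, as genes of the thioredoxin and peroxiredoxin system and targets of the transcription factor NRF2, and are 9 of the 54446 genes in the count table. Earlier results of these data were known when they were chosen. All 9 passed the filter on low counts, as did 15325 genes in all. The samples are 24 mRNA libraries of splenic CD4+ T cells from 6 mice, 3 wild-type (WT) C57BL/6 mice and 3 Aim2-/- mice of the same background, which lack the cytosolic DNA sensor AIM2 in every cell of the body. The labels number the mice 1, 3 and 4 (WT) and 1, 2 and 4 (Aim2-/-), and each mouse gave 4 libraries: cells taken without stimulation (0 h) and cells stimulated with antibodies to CD3 and CD28 for 3, 6 and 24 h. The labels give no age of the mice. The study's paper states in its general methods that animals were matched for age and sex and housed together after weaning. The labels list no culture without the antibodies at 3 to 24 h, so the effects of stimulation and of time in culture cannot be told apart.

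Thioredoxin is a small protein that reduces disulfide bonds in other proteins, and thioredoxin reductase recharges it with electrons from NADPH. Peroxiredoxins use thioredoxin to break down hydrogen peroxide, and sulfiredoxin repairs peroxiredoxins that have been over-oxidized. NRF2 (Nfe2l2) is held down by KEAP1 in resting cells; when electrophiles or oxidants modify KEAP1, NRF2 accumulates and binds antioxidant response elements in the promoters of its targets, among them the genes for glutathione synthesis. Activated T cells are known to need glutathione and thioredoxin to grow and divide.

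Library totals lay between 19715161 and 21627018 counts, and 3 counts, taken as the floor of detection, corresponded to between 0.129 and 0.155 CPM. CPM is the count of a gene relative to the library total, scaled here by the TMM factors of edgeR. As a check of the labels, Aim2 lay at 15.7, 20.1 and 19.0 CPM in Aim2-/- mice 1, 2 and 4 at 0 h and at 75.0 and 67.5 CPM in WT mice 3 and 4, but at 21.5 CPM in the mouse labelled WT 1. The mouse labelled WT 1 stayed at the Aim2-/- level at the later times too, with 5.57 CPM at 24 h beside 34.0 and 38.6 CPM in the other WT mice. Its libraries go against their label, and WT mouse 1 below means the mouse labelled so. Each genotype call named from the reported edgeR fit is also given without it. Calls named only from an alternative fit are not all given without it. The stimulation was visible in Il2ra, the alpha chain of the IL-2 receptor, which averaged 100 CPM in WT and 87.8 CPM in Aim2-/- cells at 0 h and 772 and 788 CPM at 24 h. The 7 CD4 T cell markers summed to between 3445 and 5016 CPM in every library. Markers of other spleen cells were also present and differed between mice: the 8 erythroid markers summed to 373, 24.6 and 221 CPM in Aim2-/- mice 1, 2 and 4 at 0 h and to 17.7, 75.2 and 10.6 CPM in WT mice 1, 3 and 4. None of the 8 was at 0 in any library. The 10 red pulp macrophage and myeloid markers summed to 342, 103 and 175 CPM in the Aim2-/- mice at 0 h and to 44.6, 60.5 and 38.4 CPM in the WT mice.

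Promoter sequences for 7 of the 9 genes were taken from RefSeq (build GRCm38.p6), as windows of 300 bases that reach from 250 bases before the transcript start to 50 after it. The 7 genes have 9 windows, 3 of them of Txnrd1. The core of the antioxidant response element, TGACNNNGC, was found on either strand in 4 of the 9 windows and in 12.4% of the 32851 promoter windows of the mouse genome. The 4 windows belong to 4 genes, Prdx1, Srxn1, Gclm and Txnrd1. The AP-1 motif TGANTCA, bound by FOS and JUN proteins that T cell activation induces, was found in 2 of the 9 windows, those of Prdx1 and Srxn1, and in 7.81% of all windows. The MYC-type E-box CACGTG was in none of the 9 windows of these genes and in 7.15% of all windows. The 250 bases before the start are shown for these 4 genes, whose response to stimulation is the subject below, with motif letters in capitals; all 4 lie on the plus strand, at chr4:116685349-116685598 for Prdx1, chr2:152105274-152105523 for Srxn1, chr3:122245307-122245556 for Gclm and chr10:82858956-82859205 for the second of 3 Txnrd1 starts.
Prdx1: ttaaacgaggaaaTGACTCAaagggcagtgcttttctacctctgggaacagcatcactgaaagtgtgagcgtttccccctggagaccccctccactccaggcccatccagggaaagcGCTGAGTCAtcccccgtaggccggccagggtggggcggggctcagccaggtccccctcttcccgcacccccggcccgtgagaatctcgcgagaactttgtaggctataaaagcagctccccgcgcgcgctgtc
Srxn1: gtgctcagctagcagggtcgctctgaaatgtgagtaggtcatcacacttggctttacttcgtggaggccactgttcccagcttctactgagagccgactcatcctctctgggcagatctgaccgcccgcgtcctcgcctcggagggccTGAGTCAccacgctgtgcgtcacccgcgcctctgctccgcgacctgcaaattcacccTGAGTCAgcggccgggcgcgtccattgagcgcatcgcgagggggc
Gclm: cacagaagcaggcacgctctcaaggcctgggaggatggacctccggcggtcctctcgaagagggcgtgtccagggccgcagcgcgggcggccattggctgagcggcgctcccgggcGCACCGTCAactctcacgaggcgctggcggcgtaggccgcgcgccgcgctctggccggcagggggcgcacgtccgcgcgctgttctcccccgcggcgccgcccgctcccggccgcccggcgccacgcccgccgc
Txnrd1: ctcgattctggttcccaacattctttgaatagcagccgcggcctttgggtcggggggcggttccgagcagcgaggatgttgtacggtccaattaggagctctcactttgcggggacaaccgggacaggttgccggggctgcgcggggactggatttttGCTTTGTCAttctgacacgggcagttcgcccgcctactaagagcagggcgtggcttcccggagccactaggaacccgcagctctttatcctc
In Prdx1 the first capitals are an AP-1 motif, and the second run holds an AP-1 motif that overlaps an antioxidant response element core read on the minus strand. Both runs in Srxn1 are AP-1 motifs, and its match to TGACNNNGC lies at position 28 after the start, outside the bases shown. Only these letters were searched, so any other form of the element in the bases shown is not marked. The capitals in Gclm and Txnrd1 are antioxidant response element cores on the minus strand, starting at positions -134 and -92. The windows of Txn1, Prdx2 and Nqo1 held none of the 3 motifs. A match is only a match of letters, and binding was not measured here.

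Per length of transcript, Txn1 had the highest level of the 9 genes in WT cells at 0 h, 71.0 ± 2.74 CPM per kb (SD, n = 3, also below). Prdx1 followed at 44.9 ± 2.56 CPM per kb, then Prdx2 at 39.0 ± 3.05, Gclc at 36.8 ± 0.928 and Txnrd1 at 20.3 ± 1.62 CPM per kb. Prdx2 and Gclc overlapped in this order. Srxn1 (7.30 ± 3.82), Gclm (6.53 ± 0.515) and Hmox1 (6.21 ± 1.70 CPM per kb) overlapped each other, and Nqo1 was lowest at 0.859 ± 0.211 CPM per kb. At 24 h Txn1 stood at 441 ± 7.65 CPM per kb in WT and 512 ± 59.6 in Aim2-/- cells, and Nqo1 was last in both genotypes. The order depends on the transcript used: these levels use the longest principal transcript, and with the shortest one Prdx1 is put at 117 CPM per kb in WT cells at 0 h, above Txn1. Levels of different genes are not compared in CPM below.

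**Figure D1:**
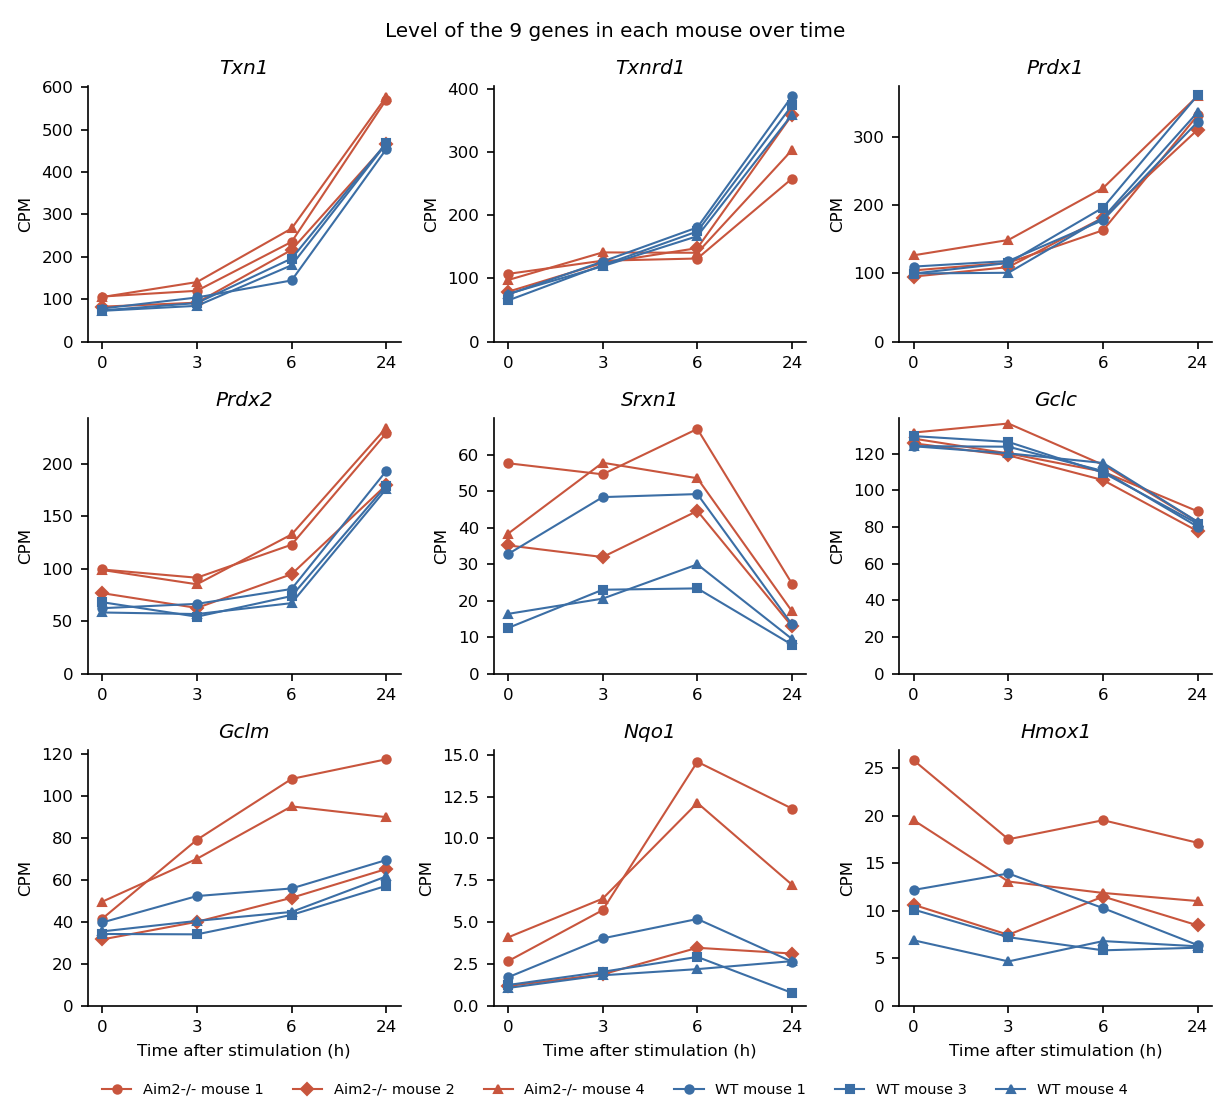
CPM of the 9 genes (vertical axes, linear from 0) in each of the 6 mice at 0, 3, 6 and 24 h (horizontal axis, evenly spaced steps), 1 line per mouse, blue for WT and red for Aim2-/-. Txn1, Txnrd1, Prdx1 and Prdx2 climbed to 24 h in every mouse, Srxn1 fell after 6 h, and Aim2-/- mice 1 and 4 lay above the rest for Gclm and Nqo1 at 3, 6 and 24 h.

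The first question was whether stimulation changes these genes. Txn1, the cytosolic thioredoxin (chromosome 4, 57943373 to 57956411, minus strand), rose by 6 h and further by 24 h. In WT mice 1, 3 and 4 it lay at 77.9, 73.6 and 72.5 CPM at 0 h, at 144, 196 and 180 CPM at 6 h and at 454, 469 and 467 CPM at 24 h. In Aim2-/- mice 1, 2 and 4 the level was 106, 82.3 and 105 CPM at 0 h, 235, 216 and 267 CPM at 6 h and 571, 466 and 578 CPM at 24 h. The 24 h libraries lay far above the 0 h libraries in every mouse, with no overlap. The rise to 24 h was 6.21-fold in WT (log2 fold change 2.63 ± 0.15, SE; adjusted p = 2.2e-12 by edgeR's quasi-likelihood test with Benjamini-Hochberg adjustment, used for all adjusted p-values below unless another fit is named) and 5.50-fold in Aim2-/- cells (2.46 ± 0.15, adjusted p = 7.5e-12). At 3 h it had not passed the test in WT (0.32 ± 0.14, adjusted p = 0.0965) or Aim2-/- cells (0.26 ± 0.14, adjusted p = 0.180). With the mouse as a block it did, with adjusted p = 0.0129 in WT and 0.0440 in Aim2-/- cells.

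Txnrd1, the cytosolic thioredoxin reductase (chromosome 10, 82833951 to 82897712, plus strand), was the one gene of the 9 called at 3 h in each genotype. WT mice 1, 3 and 4 had 74.5, 65.0 and 75.4 CPM at 0 h, 127, 121 and 119 CPM at 3 h, 181, 174 and 167 CPM at 6 h and 389, 374 and 360 CPM at 24 h. The matching Aim2-/- levels (mice 1, 2 and 4) were 107, 78.8 and 97.4 CPM at 0 h, 128, 124 and 141 CPM at 3 h, 132, 148 and 141 CPM at 6 h and 258, 359 and 303 CPM at 24 h. Each stimulated group lay wholly above its own 0 h group. The WT rise was 1.71-fold at 3 h (0.77 ± 0.11, adjusted p = 1.4e-05), 2.43-fold at 6 h (1.28 ± 0.11) and 5.22-fold at 24 h (2.38 ± 0.11, adjusted p = 2.1e-13). The Aim2-/- rise was 1.39-fold at 3 h (0.47 ± 0.11, adjusted p = 0.00218), 1.48-fold at 6 h (0.57 ± 0.11) and 3.25-fold at 24 h (1.70 ± 0.11, adjusted p = 2.4e-11).

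Prdx1 and Prdx2 encode the typical cytosolic peroxiredoxins. Prdx1 (chromosome 4, 116685544 to 116700822, plus strand) lay at 110, 99.5 and 99.6 CPM in WT mice 1, 3 and 4 at 0 h and at 322, 361 and 336 CPM at 24 h. Its Aim2-/- values were 104, 95.1 and 126 CPM at 0 h and 332, 310 and 360 CPM at 24 h. The genotypes overlapped at every time, and the times 0 h and 24 h did not. Prdx1 rose 1.80-fold by 6 h in WT (0.85 ± 0.13, adjusted p = 8.7e-06) and 1.75-fold in Aim2-/- cells (0.81 ± 0.13, adjusted p = 1.8e-05), and by 24 h 3.30-fold (1.72 ± 0.13) and 3.08-fold (1.62 ± 0.13). Prdx2 (chromosome 8, 84969587 to 84974834, plus strand) moved later: WT mice 1, 3 and 4 had 62.4, 68.1 and 58.3 CPM at 0 h, 80.7, 73.9 and 67.2 CPM at 6 h and 193, 179 and 176 CPM at 24 h. The matching Aim2-/- levels (mice 1, 2 and 4) were 99.2, 76.7 and 98.8 CPM at 0 h, 123, 94.8 and 133 CPM at 6 h and 229, 180 and 234 CPM at 24 h. The 24 h libraries stood clear of the rest in each genotype. Prdx2 rose 2.91-fold by 24 h in WT (1.54 ± 0.15, adjusted p = 6.9e-09) and 2.34-fold in Aim2-/- cells (1.23 ± 0.15, adjusted p = 2.0e-07). At 6 h the WT change missed the test (0.23 ± 0.15, adjusted p = 0.195) and passed it with the mouse as a block (0.23, adjusted p = 0.00938), while the Aim2-/- change passed narrowly (0.35 ± 0.15, adjusted p = 0.0493) and not without the mouse labelled WT 1, which enters the shared spread (adjusted p = 0.0648). Exons of Prdx2 overlap those of Junb and Rnaseh2a on the other strand, and the sources do not state whether reads were counted by strand. Junb went the other way, from a mean of 837 CPM at 0 h to 261 CPM at 24 h in WT cells, and Rnaseh2a went from 31.9 to 89.1 CPM.

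Srxn1, sulfiredoxin (chromosome 2, 152105516 to 152111376, plus strand), had another time course. WT mice 1, 3 and 4 had 32.7, 12.5 and 16.4 CPM at 0 h, 49.2, 23.4 and 29.9 CPM at 6 h and 13.5, 7.91 and 9.49 CPM at 24 h. The matching Aim2-/- levels (mice 1, 2 and 4) were 57.6, 35.1 and 38.3 CPM at 0 h, 67.0, 44.6 and 53.5 CPM at 6 h and 24.6, 12.9 and 17.1 CPM at 24 h. Every mouse was higher at 6 h than at 0 h and lowest at 24 h, but mice differed so much that the WT groups at 0 h and 6 h overlapped. Between 6 h and 24 h Srxn1 fell to 0.301 of its level in WT (-1.73 ± 0.39, adjusted p = 0.000812) and to 0.331 in Aim2-/- cells (-1.59 ± 0.38, adjusted p = 0.00151). Against 0 h the fall at 24 h came to -0.997 ± 0.394 in WT (adjusted p = 0.0289, and 0.0630 without the mouse labelled WT 1) and -1.26 ± 0.38 in Aim2-/- cells (adjusted p = 0.00605). The rise at 6 h missed the test in WT (0.73 ± 0.38, adjusted p = 0.114) and passed it with the mouse as a block (0.77, adjusted p = 5.6e-05), where the Aim2-/- rise also passed (0.34, adjusted p = 0.0295). With erythroid and macrophage marker levels as terms of the model, the change from 0 h to 24 h in WT was -0.02 (adjusted p = 0.977). The macrophage and myeloid marker sum was itself lower at 24 h than at 0 h in each mouse. That model therefore cannot tell marker and time effects apart, and whether other cells account for the fall was not tested.

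Glutamate-cysteine ligase, which makes the first step of glutathione synthesis, has a catalytic subunit (Gclc) and a modifier subunit (Gclm), and their mRNAs went in opposite directions. Gclc (chromosome 9, 77754535 to 77794485, plus strand) lay between 124 and 130 CPM in WT and between 126 and 132 CPM in Aim2-/- mice at 0 h. At 24 h it lay at 80.2, 81.8 and 82.8 CPM in WT and at 88.6, 77.7 and 82.7 CPM in Aim2-/- mice, below every 0 h library. It fell by 0.63 on the log2 scale in each genotype (SE 0.06, adjusted p = 1.6e-08 in WT and 1.7e-08 in Aim2-/- cells), to 0.648 and 0.646 of its level, and a smaller fall was called at 6 h (-0.17 ± 0.06, adjusted p = 0.0272 in WT; -0.23 ± 0.06, adjusted p = 0.00529 in Aim2-/- cells). The WT call at 6 h was lost without the mouse labelled WT 1 (adjusted p = 0.122), and both calls at 6 h were lost with marker terms (-0.19, adjusted p = 0.107 in WT; -0.25, adjusted p = 0.0516 in Aim2-/- cells) and with scaling to library totals only (-0.08, adjusted p = 0.322, and -0.11, adjusted p = 0.200).

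Gclm (chromosome 3, 122245557 to 122270732, plus strand) lay at 39.7, 34.2 and 35.5 CPM in WT mice 1, 3 and 4 at 0 h, at 56.0, 43.3 and 44.8 CPM at 6 h and at 69.5, 57.2 and 61.7 CPM at 24 h. In Aim2-/- mice 1, 2 and 4 it lay at 41.5, 31.6 and 49.6 CPM at 0 h, at 108, 51.5 and 95.1 CPM at 6 h and at 118, 65.2 and 90.0 CPM at 24 h. The rise to 24 h was 1.72-fold in WT (0.78 ± 0.27, adjusted p = 0.0122, and 0.0530 without the mouse labelled WT 1) and 2.22-fold in Aim2-/- cells (1.15 ± 0.27, adjusted p = 0.000626). Every mouse was higher at 24 h than at 0 h and the groups did not overlap. At 6 h the Aim2-/- rise was called (1.05 ± 0.26, adjusted p = 0.00222), and the WT rise was not (0.40 ± 0.27, adjusted p = 0.225) unless the mouse was a block (0.39, adjusted p = 0.00352). Blocked by mouse, the Aim2-/- rise was called at 3 h as well (0.59, adjusted p = 0.000141). Gclm shares exon bases with Gm17494 on the other strand and with the pseudogene Gm6061, which did not exceed 0.604 and 0.0472 CPM in any library.

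Nqo1, a quinone reductase and a standard NRF2 reporter gene (chromosome 8, 107388225 to 107403206, minus strand), was the least abundant of the 9. WT mice 1, 3 and 4 had 1.70, 1.24 and 1.06 CPM at 0 h, 5.18, 2.92 and 2.19 CPM at 6 h and 2.63, 0.770 and 2.67 CPM at 24 h. The matching Aim2-/- levels (mice 1, 2 and 4) were 2.66, 1.18 and 4.08 CPM at 0 h, 14.6, 3.46 and 12.1 CPM at 6 h and 11.8, 3.12 and 7.23 CPM at 24 h. All 6 mice had their highest value at 6 h except WT mouse 4. In Aim2-/- cells Nqo1 rose 3.80-fold by 6 h (1.93 ± 0.60, adjusted p = 0.0113) and was still 2.79-fold higher at 24 h (1.48 ± 0.60, adjusted p = 0.0338). The WT change at 6 h was 1.36 ± 0.63 (adjusted p = 0.0788), called with the mouse as a block (1.33, adjusted p = 0.000982), and at 24 h it was 0.60 ± 0.64 (adjusted p = 0.414).

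Hmox1, haem oxygenase-1, which degrades haem and is also high in red pulp macrophages (chromosome 8, 75093621 to 75100589, plus strand), was not called in any comparison with the filter and test used here. WT mice 1, 3 and 4 had 12.2, 10.1 and 6.89 CPM at 0 h and 6.38, 6.11 and 6.26 CPM at 24 h. The matching Aim2-/- levels (mice 1, 2 and 4) were 25.8, 10.6 and 19.5 CPM at 0 h and 17.2, 8.46 and 11.0 CPM at 24 h. Each mouse was lower at 24 h than at 0 h. The changes of -0.64 ± 0.40 in WT (adjusted p = 0.158) and -0.61 ± 0.39 in Aim2-/- cells (adjusted p = 0.165) missed the test, and passed it with the mouse as a block (adjusted p = 0.0132 and 0.00843) and without the filter on low counts (adjusted p = 0.0408 and 0.0376). Without that filter Hmox1 was also called between genotypes at 0, 6 and 24 h (adjusted p = 0.0249, 0.0320 and 0.0374). The macrophage and myeloid marker sum was also lower at 24 h in each mouse, at 24.9, 13.6 and 16.9 CPM in WT and 154, 28.3 and 39.4 CPM in Aim2-/- cells. With the marker levels in the model the WT change turned to 0.62 (adjusted p = 0.284). In bulk RNA, fewer cells of a type and less RNA per cell cannot be told apart.

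**Figure D2:**
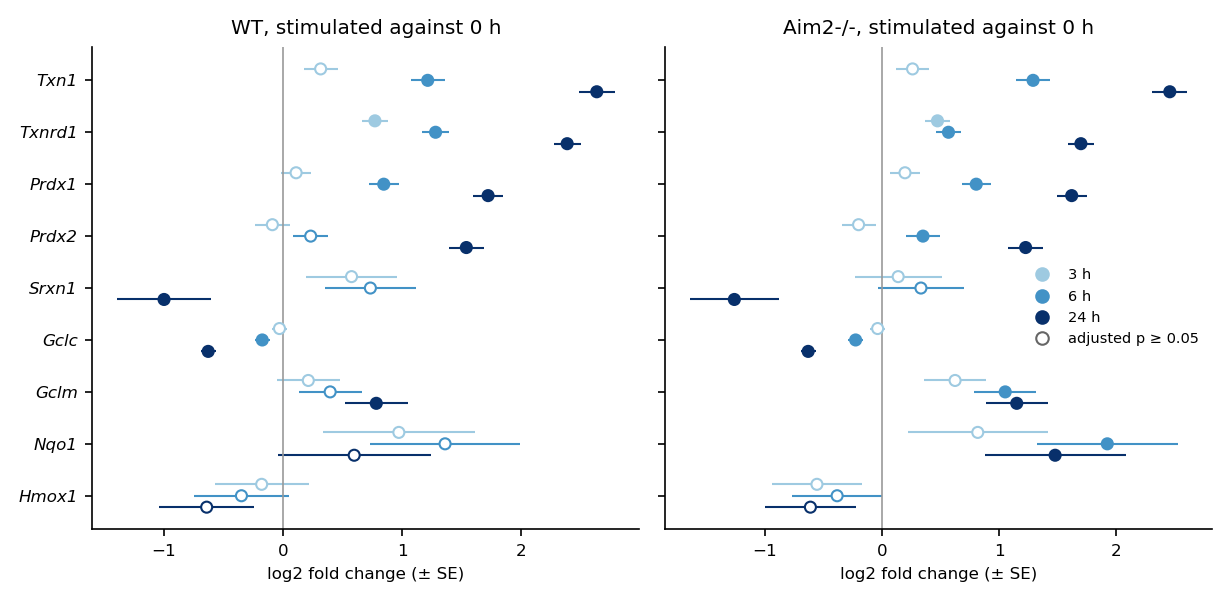
Log2 fold change against 0 h (horizontal axis, points, with bars of 1 SE) of the 9 genes at 3, 6 and 24 h (light to dark blue), in WT (left) and Aim2-/- cells (right), filled where the adjusted p was under 0.05. Txn1 and Txnrd1 reached 2.63 and 2.38 in WT at 24 h, Srxn1 lay above 0 at 3 and 6 h and below it at 24 h, Gclc and Hmox1 lay below 0 at all 3 times, and the Txnrd1 points of Aim2-/- cells lay left of those of WT cells.

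Counted over the 9 genes, 1 rose at 3 h in WT and 1 in Aim2-/- cells, against a background of 16.2% and 16.1% of all genes tested that rose, and none fell (background 16.4% and 14.6%). At 6 h 3 rose in WT (background 26.4%) and 6 in Aim2-/- cells (28.5%), and Gclc alone fell in each (24.8% and 22.7%). At 24 h 5 rose in WT (36.6%) and 6 in Aim2-/- cells (36.8%), and Srxn1 and Gclc fell in each (34.8% and 33.5%). The median log2 fold change of the 9 at 24 h was 0.78 in WT and 1.23 in Aim2-/- cells, beside -0.01 and 0.03 over all genes tested. From 6 h to 24 h the same 4 genes, Txn1, Txnrd1, Prdx1 and Prdx2, rose in WT (background 29.6%) and in Aim2-/- cells (27.4%), and Srxn1 and Gclc fell (28% and 27%). The shares of the 9 that were called thus stood beside a background in which a large part of all genes moved. With the mouse as a block in edgeR 4 of the 9 genes were called at 3 h in WT in place of 1, 6 in Aim2-/- cells in place of 1, and 8 at 6 h in WT in place of 4. Over all 15325 genes tested, the same block gave 6550, 6307 and 9071 calls in place of 4992, 4698 and 7837. The increase was thus not particular to the 9.

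The second question was whether the genotypes differ. At 0 h 2 of the 9 genes were called, both higher in Aim2-/- cells (background 3.24% higher and 1.99% lower). Prdx2 differed by 0.54 ± 0.15 on the log2 scale, 1.46-fold (adjusted p = 0.0380), and Txnrd1 by 0.40 ± 0.11, 1.32-fold (adjusted p = 0.0404). The 3 Aim2-/- mice lay above the 3 WT mice for both genes, from 76.7 to 99.2 against 58.3 to 68.1 CPM for Prdx2 and from 78.8 to 107 against 65.0 to 75.4 CPM for Txnrd1. Without the mouse labelled WT 1 both calls were lost (Prdx2 0.54, adjusted p = 0.0739; Txnrd1 0.43, adjusted p = 0.0682), and Srxn1 was called instead (1.60, adjusted p = 0.00688). Of the 6 ways to leave out 1 mouse, 5 ended the call of Prdx2 and 5 that of Txnrd1; both stayed called without Aim2-/- mouse 2. Srxn1 differed by 1.09 ± 0.38 with all mice (adjusted p = 0.0881) and was called with the mouse as a random block (1.17, adjusted p = 0.0206), a fit in which Txnrd1 was not (0.39, adjusted p = 0.0542). The 3 Aim2-/- mice lay above the WT mice for Txn1 and Srxn1 too. Beside Prdx2, its overlapping neighbor Junb had means of 1190 CPM in Aim2-/- and 837 CPM in WT cells at 0 h. At 6 h the Junb means were closer, 386 and 356 CPM.

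At 6 h 3 of the 9 genes were called, all higher in Aim2-/- cells (background 8.78% higher and 7.01% lower). Prdx2 was 1.58-fold higher (0.66 ± 0.15, adjusted p = 0.0108), Gclm 1.77-fold (0.82 ± 0.26, adjusted p = 0.0407) and Txn1 1.38-fold (0.47 ± 0.14, adjusted p = 0.0336). For Prdx2 and Txn1 the genotypes did not overlap. For Gclm the difference lay in Aim2-/- mice 1 and 4, at 108 and 95.1 CPM, while Aim2-/- mouse 2, at 51.5 CPM, lay within the WT range of 43.3 to 56.0 CPM. Without the mouse labelled WT 1, Prdx2 was still called, Gclm (0.94, adjusted p = 0.0561) and Txn1 (0.35, adjusted p = 0.136) were not, and Srxn1 was (1.04, adjusted p = 0.0332). Of the 6 mice left out in turn, 4 ended the Prdx2 call (WT 3 and 4, Aim2-/- 1 and 4; highest adjusted p = 0.0855), and 5 ended that of Gclm and that of Txn1, all but Aim2-/- mouse 2. The largest difference of the 9 was in Nqo1, 1.55 ± 0.59 (adjusted p = 0.0760, and 0.0483 with the mouse as a random block), again with mouse 2 at 3.46 CPM inside the WT range of 2.19 to 5.18 CPM and mice 1 and 4 above it. Srxn1 was called with that block as well (0.73, adjusted p = 0.0482), which gave 5 calls in place of 3.

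At 3 h none of the 9 genes was called by edgeR, limma-voom or DESeq2 (background 0.254% higher and 0.0392% lower), and 3 had an unadjusted p under 0.05. Without the mouse labelled WT 1, Srxn1 was called (1.14, adjusted p = 0.0465). At 24 h none was called by edgeR (background 0.659% higher and 0.00653% lower) or limma-voom, and 4 had an unadjusted p under 0.05 by edgeR. DESeq2 called 1 of the 9 at 24 h, and its share over all genes is not given here. At 24 h all 3 Aim2-/- mice lay above the WT mice for Nqo1, at 3.12 to 11.8 against 0.770 to 2.67 CPM (1.86 ± 0.61, adjusted p = 0.117), and for Hmox1, at 8.46 to 17.2 against 6.11 to 6.38 CPM (0.97 ± 0.40, adjusted p = 0.184). For Hmox1 the genotypes also stood apart at 6 h (0.90 ± 0.39, adjusted p = 0.112). With the 4 libraries of a mouse summed, so that each mouse entered once, none of the 9 was called by edgeR (background 0.0117% in either direction) or limma-voom. By edgeR 6 had an unadjusted p under 0.05, and the lowest adjusted p was 0.138. DESeq2 called 4 of the 9 over these sums, and its share over all genes is not given here. The median difference of the 9 was 0.40, 0.43, 0.66 and 0.23 at 0, 3, 6 and 24 h, beside -0.01, 0.00, 0.05 and 0.01 over all genes tested.

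**Figure D3:**
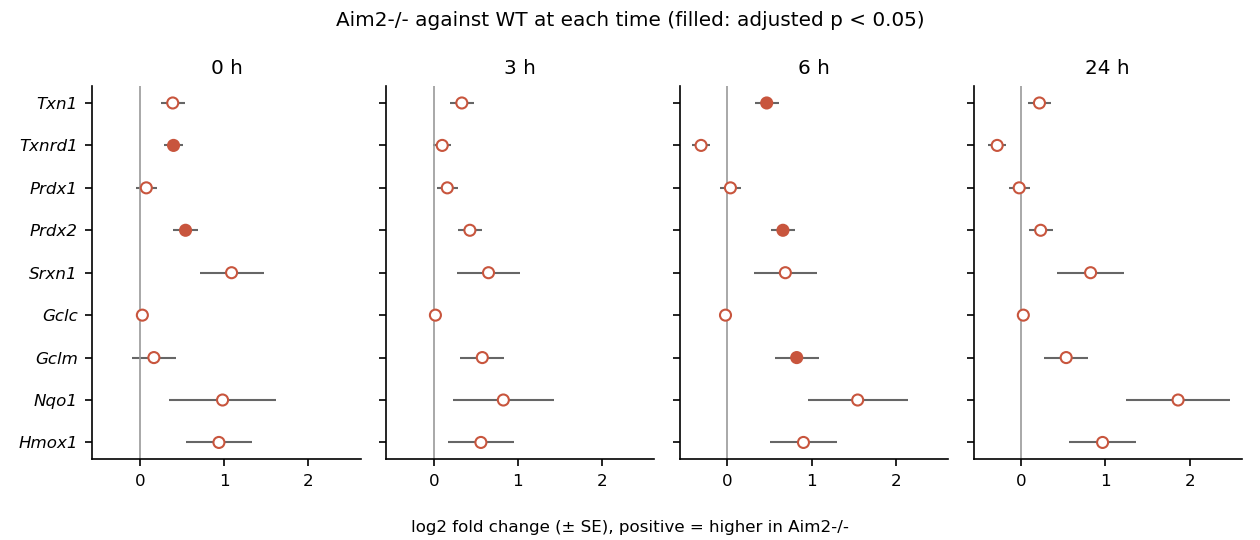
Log2 fold change of Aim2-/- against WT cells (horizontal axes, points, with bars of 1 SE) for the 9 genes at 0, 3, 6 and 24 h, filled where the adjusted p was under 0.05. Prdx2 and Txnrd1 were called at 0 h and Prdx2, Txn1 and Gclm at 6 h, the bars of Nqo1 are the widest, and Txnrd1 lies right of 0 at 0 h and left of 0 at 6 and 24 h.

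Txnrd1 had the lowest interaction p of the 9 genes at 6 h and at 24 h. At 0 h every Aim2-/- mouse was above every WT mouse; at 6 h every Aim2-/- mouse, at 132, 148 and 141 CPM, was below every WT mouse, at 181, 174 and 167 CPM. At 24 h the order was the same, 258, 359 and 303 CPM against 389, 374 and 360 CPM, but the groups all but touched (359 against 360 CPM). From 0 h to 6 h Txnrd1 rose between 2.21-fold and 2.68-fold in single WT mice and between 1.23-fold and 1.88-fold in single Aim2-/- mice. The interaction of genotype and stimulation was -0.71 ± 0.15 on the log2 scale at 6 h (adjusted p = 0.0714) and -0.68 ± 0.15 at 24 h (adjusted p = 0.0988), short of the threshold, as was that at 3 h (-0.30 ± 0.15, adjusted p = 0.9999). With the mouse as a block it passed, at 6 h with -0.72 (adjusted p = 0.0143) and at 24 h with -0.69 (adjusted p = 0.0205). Without the mouse labelled WT 1 and without a block the values were -0.72 (adjusted p = 0.149) and -0.69 (adjusted p = 0.136). In that block Gclm also differed at 6 h, by 0.62 (adjusted p = 0.0251), with the larger rise in Aim2-/- cells. In the reported edgeR fit, without a block or marker terms, no interaction of the 9 genes was called at 3, 6 or 24 h. The background was 0%, 0.0261% and 0% of all genes, and the number with an unadjusted p under 0.05 was 0, 1 and 1. Without a block limma-voom called none of the 9 either. DESeq2 called 1 gene of the 9, Txnrd1, at 6 h and at 24 h, and its share over all genes is not given here.

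Cell markers also differed between the genotypes. All 8 erythroid markers and all 8 neutrophil and basophil markers had a higher mean in Aim2-/- than in WT cells at each of the 4 times, as did 8, 10, 10 and 8 of the 10 macrophage and myeloid markers and all 5 B cell markers. At 6 h the erythroid sum was 557, 31.4 and 271 CPM in Aim2-/- mice 1, 2 and 4 and 26.9, 73.4 and 14.9 CPM in WT mice 1, 3 and 4. It was highest in Aim2-/- mice 1 and 4, which also had the highest Gclm, Nqo1 and Prdx2. WT mouse 3 had a higher erythroid sum than Aim2-/- mouse 2 but less Prdx2, at 73.9 against 94.8 CPM. As background, peroxiredoxin-2 is abundant in red cells and haem oxygenase-1 in red pulp macrophages. Whether such cells account for the differences was not tested. With erythroid and macrophage marker levels as terms of the model none of the 9 genes was called between genotypes at any time: at 6 h the difference was 0.38 for Prdx2 (adjusted p = 0.0585), 0.28 for Gclm (adjusted p = 0.473) and 0.28 for Txn1 (adjusted p = 0.220). The Txnrd1 interaction at 6 h had the same size in that model (-0.71, adjusted p = 0.0407). Without Aim2-/- mouse 2, the Aim2-/- mouse with the lowest markers, 4, 3, 6 and 5 of the 9 genes were called at 0, 3, 6 and 24 h in place of 2, 0, 3 and 0. Calls over all genes rose as well, from 802, 45, 2421 and 102 to 2139, 1143, 4020 and 2702, so the increase was not particular to the 9. The marker terms cover erythroid and macrophage markers only. Most of these markers were higher in Aim2-/- cells, so with 3 mice per genotype the model cannot tell marker and genotype effects apart. The part of any of these cell types in the differences was not tested.

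**Figure D4:**
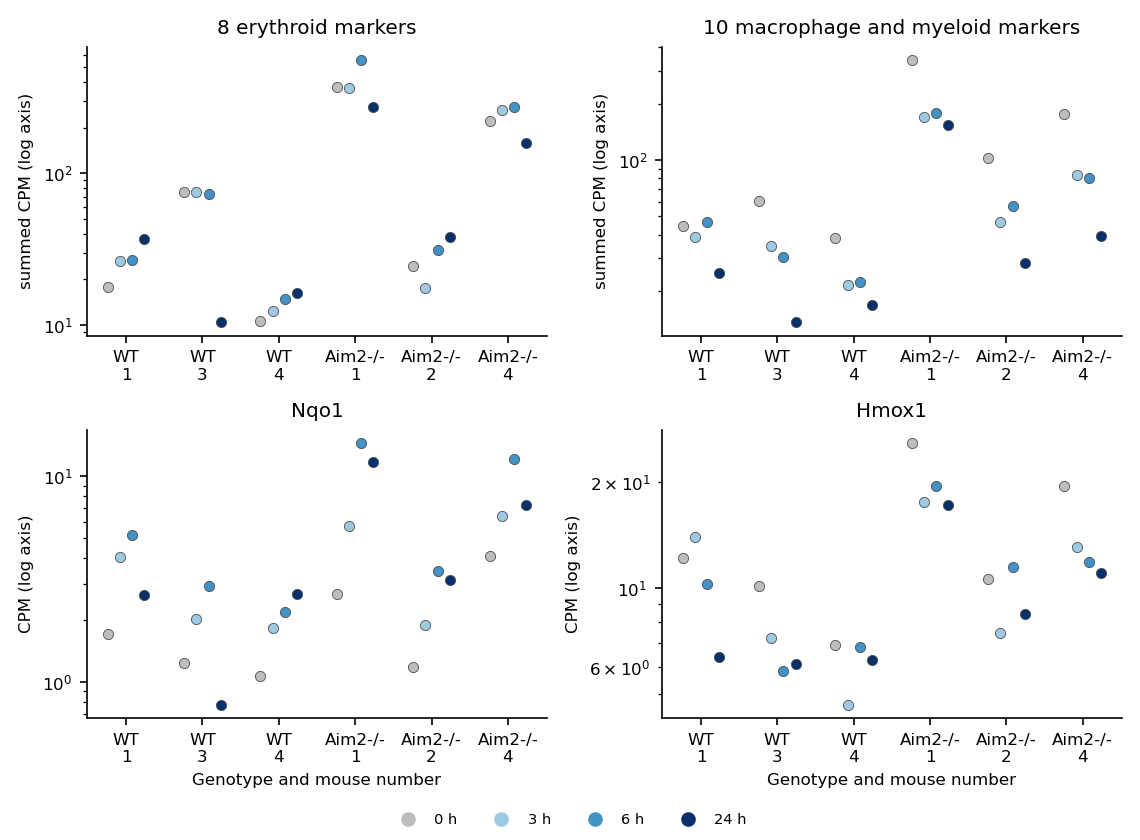
Summed CPM of 8 erythroid and 10 macrophage and myeloid markers (top) and CPM of Nqo1 and Hmox1 (bottom), all on log axes, in each mouse (horizontal axis) at 0, 3, 6 and 24 h (grey to dark blue). Aim2-/- mice 1 and 4 have the highest erythroid sums, up to 557 CPM, and the highest Nqo1, up to 14.6 CPM; Aim2-/- mouse 2 lies near the WT mice in both.

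Beyond the 9, 73 other genes of the pathway were followed, all of them tested. This list was also chosen with earlier results of these data known, so its shares beside those of all genes are descriptions only. At 24 h 36 rose and 19 fell in WT, and 35 rose and 19 fell in Aim2-/- cells. That is 49.3% up and 26% down in WT beside 36.6% and 34.8% of all genes tested, and 47.9% and 26% in Aim2-/- cells beside 36.8% and 33.5%. The median log2 fold changes of the 73 were 0.41 and 0.21. The counts by role below stand beside the same shares of all genes. Of the 10 regulators of NRF2, 2 rose and 4 fell in each genotype. Nfe2l2 itself fell from a mean of 88.5 to 57.6 CPM in WT (-0.62 ± 0.11, adjusted p = 5.15e-05), while Keap1, its inhibitor, rose from 50.2 to 111.7 CPM (1.15 ± 0.07, adjusted p = 3.4e-12). Bach1, a repressor of haem oxygenase and other NRF2 targets, fell from 66.1 to 15.7 CPM (-2.08 ± 0.14, adjusted p = 1.8e-11). Sqstm1 (p62), an autophagy receptor that binds KEAP1, fell by 1.78 on the log2 scale. Of the small MAF partners of NRF2, Mafg rose by 0.37 ± 0.12 in WT (adjusted p = 0.00874), and Mafk missed the test (0.21 ± 0.11). Bach2, a repressor that keeps T cells quiescent, was called at 24 h in Aim2-/- cells (0.60 ± 0.21, adjusted p = 0.0170) and not in WT cells (0.47 ± 0.21, adjusted p = 0.0540). With marker terms the Bach2 value in Aim2-/- cells turned to -0.19 (adjusted p = 0.642). Its level was higher at 6 h than at 24 h: the means at 0, 6 and 24 h were 154, 359 and 213 CPM in WT and 103, 199 and 156 CPM in Aim2-/- cells.

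Other thioredoxins, peroxiredoxins and glutaredoxins rose in 12 of 17 cases in WT at 24 h and fell in 4. Prdx3 and Txn2, the mitochondrial peroxiredoxin and thioredoxin, rose by 2.18 ± 0.12 and 1.95 ± 0.16. Txnip, which binds and inhibits thioredoxin and restrains glucose uptake, had the deepest fall of this group: it lay at 982 to 1156 CPM in WT mice at 0 h and at 59.1 to 90.9 CPM at 24 h (-3.91 ± 0.17, adjusted p = 4.9e-14), and fell by 3.05 in Aim2-/- cells. Sesn1, a sestrin, fell by 2.55 ± 0.12. Of 18 glutathione genes 9 rose and 3 fell in WT, with Gsr, the glutathione reductase, up by 1.79 ± 0.09 and Gstt2 up by 2.49 ± 0.15, and Mgst2 down (-1.33 ± 0.15). Slc7a11, the cystine transporter, reached at most 2.69 CPM in any library. Of 8 genes of NADPH supply 6 rose and 2 fell in WT: Tkt (transketolase) rose by 2.57 ± 0.11, Mthfd2 by 3.34 ± 0.14 and G6pdx, the first enzyme of the pentose phosphate pathway, by 1.15 ± 0.09. Sod2 (0.89 ± 0.09) and Msra (0.56 ± 0.13) were among 3 of 6 superoxide dismutase, catalase and methionine sulfoxide reductase genes that rose. The 14 haem, iron and other NRF2 targets were mixed, with 4 up and 6 down: Blvra, biliverdin reductase, rose by 2.37 ± 0.11 and Abcc4 by 1.01 ± 0.13, while Osgin1 fell from 9.02 to 0.511 CPM (-4.13 ± 0.53) and Ephx1 fell by 1.77. In Aim2-/- cells each of these called genes was called in the same direction, except Mafg (0.15 ± 0.12, adjusted p = 0.281).

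**Figure D5:**
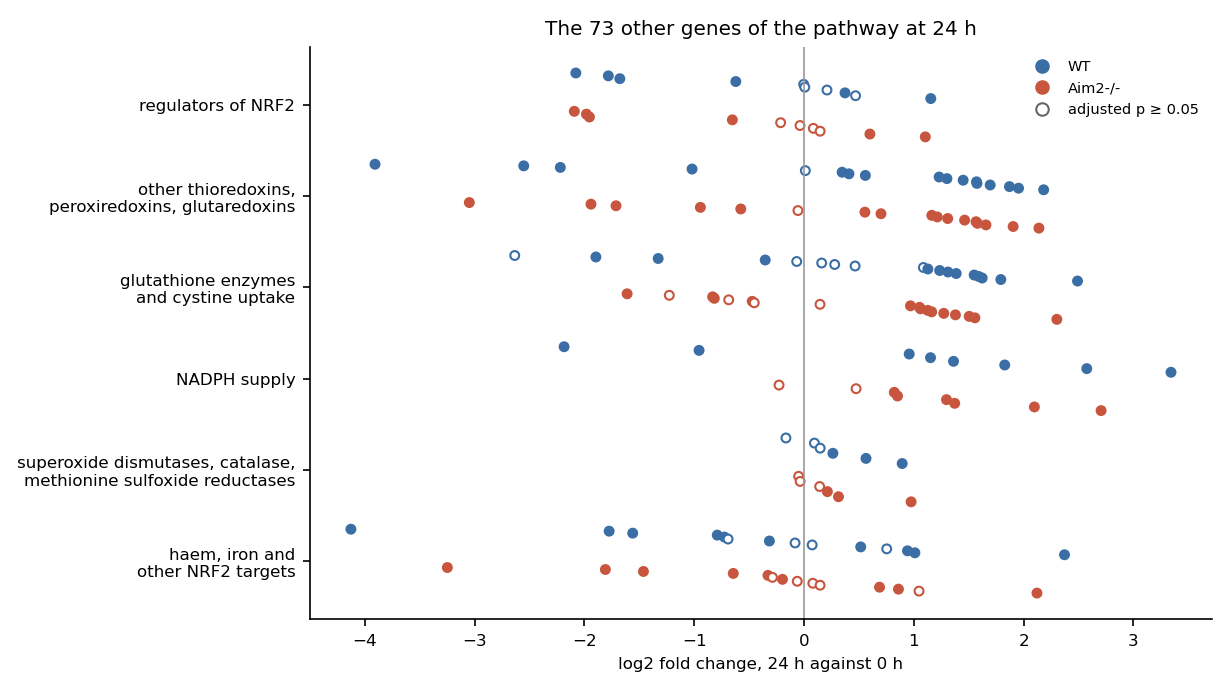
Log2 fold change at 24 h against 0 h (horizontal axis) of the 73 other genes of the pathway, grouped by role (vertical axis), blue for WT and red for Aim2-/- cells, 1 point per gene, filled where the adjusted p was under 0.05. Most genes of NADPH supply (6 of 8 in WT) and of the thioredoxin family (12 of 17) lie right of 0, and Txnip (-3.91 in WT) and Osgin1 (-4.13) are the points farthest left.

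Between genotypes, 8 of the 73 were higher and 2 lower in Aim2-/- cells at 0 h, and 15 were higher and 5 lower at 6 h. These are 11% and 2.74% at 0 h, beside 3.24% and 1.99% of all genes, and 20.5% and 6.85% at 6 h, beside 8.78% and 7.01%. Since the list was chosen with earlier results of these data known, an excess over all genes is no test of the pathway. Leaving out WT mouse 1 gave 4 higher and 1 lower at 0 h and 11 higher and 3 lower at 6 h, and marker terms gave 2 higher and 0 lower at 0 h and 1 in each direction at 6 h. At 3 h and 24 h the lowest adjusted p was 0.0781 (Prdx4) and 0.0785 (Idh1). At 0 h the lowest adjusted p belonged to Chac1, which degrades glutathione, at 6.17 CPM in Aim2-/- against 0.721 CPM in WT cells on average (3.08 ± 0.58, adjusted p = 0.00767), followed by Slc3a2, the heavy chain of the cystine and amino acid transporters (0.54 ± 0.11, adjusted p = 0.0102), and Gsr (0.41 ± 0.09, adjusted p = 0.0149). Of the 10 regulators of NRF2, 4 were called lower and 0 higher in Aim2-/- cells at 6 h, beside 7.01% and 8.78% of all genes. Bach1 had the lowest adjusted p of them and was lower in every Aim2-/- mouse at 6 h, at 35.2, 45.2 and 31.4 CPM against 67.8, 58.3 and 64.7 CPM (-0.77 ± 0.13, adjusted p = 0.00447). Gpx4, which reduces lipid peroxides (0.83 ± 0.15, adjusted p = 0.00484), and Fth1, the ferritin heavy chain (0.60 ± 0.12, adjusted p = 0.00811), were higher. Without the mouse labelled WT 1 these 6 genes were still called, with 4.09 for Chac1 (adjusted p = 4.8e-05), 0.50 for Slc3a2 (0.0294), 0.44 for Gsr (0.0227), -0.72 for Bach1 (0.0101), 0.85 for Gpx4 (0.00934) and 0.58 for Fth1 (0.0248). With marker terms Slc3a2 (adjusted p = 0.0506), Gsr (0.0934) and Fth1 (0.0561) were no longer called. All of these comparisons use the same 6 mice, and each time of a genotype is set against the same 3 libraries at 0 h.

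Across the 24 libraries the 9 genes fell into sets with like profiles, given here as descriptions since the libraries share time points and mice. Txn1 correlated with Prdx1 at r = 0.982 and with Gclc at r = -0.918, and Gclm with Nqo1 at r = 0.844. After the mean of each group was taken away, so that only differences between mice were left, Gclm correlated with Nqo1 at 0.912 and with Prdx2 at 0.890, and Srxn1 with Hmox1 at 0.807. Txnrd1 stood apart there, with r between -0.250 (Gclc) and 0.288 (Prdx1). The genes nearest to each of the 9 over the 24 libraries, among those of at least 5 CPM on average, were Tuba1b (r = 0.992) and Mrpl13 for Txn1, B4galt5 (0.988) and Aars for Txnrd1, Txnl1 (0.995) and Psma1 for Prdx1, and Gpx1 (0.987) and Ifi30 for Prdx2. For Gclc they were Rrad (0.974) and Arih2, for Gclm Pklr (0.919) and Steap3, for Nqo1 Vamp5 (0.969) and Car2, for Srxn1 AU020206 (0.960) and Zeb2, and for Hmox1 Lyz2 (0.920), a myeloid marker, and Lgals1.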

How the data were processed

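Polyadenylated RNA of splenic CD4+ T cells, isolated by negative magnetic selection, was made into stranded TruSeq libraries. The deposited values are raw counts per Ensembl gene, not normalized, which the authors obtained after STAR alignment to GRCm38; whether counting used the strand is not given in the sources used here. The submitters' processing notes also name DESeq2 and edgeR. The study's paper describes the library preparation. The RNA-seq experiment it reports is another one, of naive CD4+ T cells and of cells cultured under regulatory T cell conditions, and not this time course. No per-sample column was left unmapped.

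From these counts, all 24 libraries were fitted in edgeR 4.0.16 (R 4.3.3) with 1 mean per genotype and time, TMM scaling and filterByExpr (minimum count 10), which kept 15325 of 31367 genes with a count and 99.93% of all counts. The biological coefficient of variation was 18.6%. Two-sided quasi-likelihood tests were adjusted by the Benjamini-Hochberg method over all genes tested, and genes with an adjusted p under 0.05 are called. Log2 fold changes carry the SE of the fit. Alternatives were DESeq2 1.42.0, limma-voom (limma 3.58.1), RLE factors, library totals, other filters (none, or a mean of at least 1 CPM), only the libraries compared, each mouse left out, the mouse as a block, and marker terms (mean log2 CPM of each list). Libraries of the same mouse come from the same animal by their labels, and their deviations from the group means correlated at 0.139 to 0.567 in all 36 pairs, beside -0.432 to 0.0742 in 72 pairs of different mice. The scripts were tested on simulated data.

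Positions are from GRCm38 and promoter windows from RefSeq. The 9 genes, the pathway list and the marker lists were chosen with earlier results of these data known. Named pathway genes are the regulators Nfe2l2, Keap1, Bach1, Bach2, Mafg and Mafk, with Txnip, Slc7a11 and G6pdx, then per role up to 2 rises and 2 falls, the largest in WT at 24 h that were called alike in both genotypes, and per time up to 3 genotype differences with the lowest adjusted p. Every pathway gene named meets this rule, except Prdx4 and Idh1, named for their p after it was seen, and genes nearest to a member by Pearson r of log2 CPM (mean of at least 5 CPM). The 3 mice per genotype limit the precision.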

Additional observations from a re-analysis of the deposited data

Results flagged for a closer look

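In a pair of pathway genes every WT mouse rose from 0 h and every Aim2-/- mouse fell. For Chac1, which degrades glutathione, the mean log2 ratio per mouse at 6 h was 0.61 in WT and -1.13 in Aim2-/- cells, and at 24 h it was 1.94 and -1.62. The 0 h levels were 1.45, 0.258 and 0.456 CPM in WT mice 1, 3 and 4 and 7.74, 5.31 and 5.46 CPM in Aim2-/- mice 1, 2 and 4, and the 24 h levels overlapped, at 2.00 to 2.36 and 1.59 to 2.49 CPM. The interaction was -1.61 at 6 h (edgeR, adjusted p = 0.385) and -3.16 ± 0.78 at 24 h (adjusted p = 0.119), so neither passed the test. For Slc3a2, the heavy chain of amino acid transporters, the mean log2 ratio at 6 h was 0.15 in WT and -0.40 in Aim2-/- cells, with an interaction of -0.55 (adjusted p = 0.109).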

How the results depend on the processing

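Of 1694 alternative values for the 9 genes, 1514 kept direction and side of the threshold, 99 passed it only in the alternative, 69 only in the reported fit, and 12 changed direction. With marker terms Hmox1 turned to 0.39, 0.62 and 0.24 in WT (6 h and 24 h against 0 h, 24 h against 6 h), to 0.10, 0.47, 0.90 and 0.43 in Aim2-/- cells (3, 6 and 24 h against 0 h, 24 h against 6 h) and to -0.21 between genotypes at 3 h. In that model Nqo1 turned to 0.071 in Aim2-/- cells (24 h against 6 h) and to -0.21 and -0.31 between genotypes at 0 h and 3 h, and Prdx2 to -0.034 at 24 h. Bach2 turned to -0.21 in WT and -0.19 in Aim2-/- cells at 24 h, Mafk to -0.090 in WT and Chac1 to 0.21 in Aim2-/- cells. None of these reversed values passed the test, and the cause was not tested.

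Of the 9 genes, the number called at 3 h in WT (1) was 2 with library totals and with only the libraries compared, and in Aim2-/- cells (1) it was 2 with library totals, without a filter and with marker terms. Between genotypes, 2 at 0 h became 1 with RLE factors, 1 with only the libraries compared and 0 with marker terms; 0 at 3 h became 2 without a filter; 3 at 6 h became 5 with DESeq2, 6 without a filter, 1 with only the libraries compared and 0 with marker terms; 0 at 24 h became 1 with DESeq2 and 3 without a filter. For the interaction, 0 became 1 at 6 h and 24 h with DESeq2 and without a filter, and 1 at 6 h with marker terms. Over the mouse sums, DESeq2 called 4 in place of 0. These counts stand without the share of all genes called in the same fit.

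With the mouse as a replicate block in edgeR, 4 and 8 genes were called in WT at 3 h and 6 h, 6 in Aim2-/- cells at 3 h, and 2 and 1 in the interaction at 6 h and 24 h. Over all genes the same block gave 6550 and 9071 calls in WT, 6307 in Aim2-/- cells, and 717 and 424 in the interaction. As a random block in limma-voom it gave 2 at 3 h in each genotype, 5 between genotypes at 6 h, and 1 and 1 in the interaction at 6 h and 24 h. The block was not possible for mouse sums, and not in edgeR between genotypes.

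Leaving out each mouse in turn gave 1 to 2 calls in WT at 3 h, 3 to 7 at 6 h, 1 to 2 in Aim2-/- cells at 3 h, 0 to 4, 0 to 3, 0 to 6 and 0 to 5 between genotypes at 0, 3, 6 and 24 h, 0 to 1 in the interaction at 6 h and at 24 h, and 0 to 5 over mouse sums. The highest genotype counts were without Aim2-/- mouse 2. Over all genes, the genotype calls of 802, 45, 2421 and 102 at 0, 3, 6 and 24 h ranged over 30 to 2139, 1 to 1143, 95 to 4020 and 0 to 2702. The interaction calls of 0, 4 and 0 reached 9, 717 and 424 with the block in edgeR, and the 2 calls over mouse sums reached 2939 without Aim2-/- mouse 2. Calls at 3 h against 0 h ranged over 2936 to 6550 in WT (4992 reported) and 2803 to 6307 in Aim2-/- cells (4698), and with marker terms the Aim2-/- calls at 24 h were 6660 in place of 10778.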
